A study of Mus musculus with 6 samples.

Results

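The 35 genes described here act in the G2 phase of the cell cycle and in mitosis, and were followed in colonic epithelium of wild-type mice and of mice lacking miR-31, a microRNA. They were chosen by name, with earlier results of these data known, as mouse RefSeq symbols matched to the accession of each non-control probe. All 35 were represented on the array, by 53 of its 56605 non-control probes, among 23462 genes with a symbol. Each group held 3 male mice, with 1 Agilent one-colour array per mouse. The wild-type animals carried the genotype label wildtype and the others miR-31 knockout, with no treatment named for either. The epithelium was separated by flow into TRIzol, per the design note, and neither the gate, the strain and age of the mice nor how the allele was deleted is given in the sources used here. Replicates are numbered in order of deposit, and these numbers pair no animals.

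In the colon, division is confined to the crypts, where stem cells and transit-amplifying cells cycle before their daughters differentiate and move to the surface. Late in S phase and in G2 a cell switches on a common set of genes that build the spindle, prepare the kinetochores and supply the cyclins and kinases of mitotic entry, and it removes their products again as mitosis ends. The transcripts are therefore made mainly by cells that are about to divide, and their summed level in a tissue follows the share of such cells as well as the amount of RNA per cell. In bulk samples such as these, fewer cycling cells and less RNA per cycling cell cannot be told apart.

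Many promoters of this set carry a short element called the cell cycle homology region (CHR), bound by the DREAM and MuvB complexes, together with CCAAT boxes bound by the factor NF-Y. They are shown as background, and whether they bear on how the members vary together was not tested. In RefSeq windows of the build GRCm38.p6, 300 bases long with 250 before and 50 after the annotated start, 29 of the 35 members had an entry. TTTGAA or TTCGAA, searched on both strands, was found in 23 of these 29 members (79.3%), against 21.7% of 27025 genes in the table, and CCAAT, also on both strands, in 23 (79.3%) against 41.1%. Both elements occurred in 21 members (72.4%) and in 8.61% of all genes. Of the 39 DNA replication and S phase genes with an entry, 8 (20.5%) held a CHR match and 22 (56.4%) a CCAAT match. Of 75 other mitosis genes with an entry, which are no members, 48 (64.0%) held a CHR match and 48 (64.0%) a CCAAT match. Both elements occurred in 34 of these genes (45.3%), so the elements were not particular to the members. These matches are descriptions of letters in a window and show no binding. The windows of the 3 tested members with the smallest unadjusted p, an entry and an element are given below from 150 bases before to 50 bases after the start, 5′ to 3′ on the strand of the gene, with capitals marking the matches to either element. Cdca3 lies at chr6:124830026-124830225, Cenpe at chr3:135212413-135212612 and Ttk at chr9:83834539-83834738, all on the plus strand.
Cdca3: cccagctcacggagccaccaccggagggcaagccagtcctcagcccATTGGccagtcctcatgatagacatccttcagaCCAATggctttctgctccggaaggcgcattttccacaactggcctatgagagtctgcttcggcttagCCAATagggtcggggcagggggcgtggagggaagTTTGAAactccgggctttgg
Cenpe: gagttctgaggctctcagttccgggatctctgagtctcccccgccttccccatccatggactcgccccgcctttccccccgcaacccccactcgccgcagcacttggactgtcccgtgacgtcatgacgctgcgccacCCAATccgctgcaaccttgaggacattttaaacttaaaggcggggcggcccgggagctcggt
Ttk: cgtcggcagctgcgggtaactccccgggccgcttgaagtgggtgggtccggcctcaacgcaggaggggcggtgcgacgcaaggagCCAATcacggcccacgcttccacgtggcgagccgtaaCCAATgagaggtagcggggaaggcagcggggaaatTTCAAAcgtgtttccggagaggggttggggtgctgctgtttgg
Cdca3 held 3 CCAAT matches and 1 CHR match, the latter with its first base at position 31 after the start. Ttk held 2 CCAAT matches and 1 CHR match at position 8, written as its reverse complement. Cenpe held 1 CCAAT match and no letters of the CHR. The microRNA that the knockout animals lack has 2 mature forms, printed with the seed (bases 2 to 8) in capitals. No probe carried the RefSeq accession of their precursor, so the loss itself was not checked by these data.
mmu-miR-31-5p: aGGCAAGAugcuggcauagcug
mmu-miR-31-3p: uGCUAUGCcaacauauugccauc

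Across the 6 arrays, between 68.1% and 76.7% of spots were well above background, and all 10 listed epithelial markers were well above background on at least 3 arrays. All 53 probes of the members were well above background on all 6 arrays. A limit of a different kind applied. The extraction software had marked between 4.95% and 17.3% of non-control spots per array as outliers and the probes of the members were marked more often, between 13.2% in wild-type replicate 3 and 50.9% in knockout replicate 1. Such values were left out, and a gene was tested when at least 2 arrays of each group kept a value. This left 25 of the 35 members, 14 of them with a value on all 6 arrays, while the 10 others, Cdk1, Ube2c, Cenpa, Cenpf, Aurkb, Kif11, Kif4, Nusap1, Dlgap5 and Ect2, lost their place to marks rather than to dimness.

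**Figure D1:**
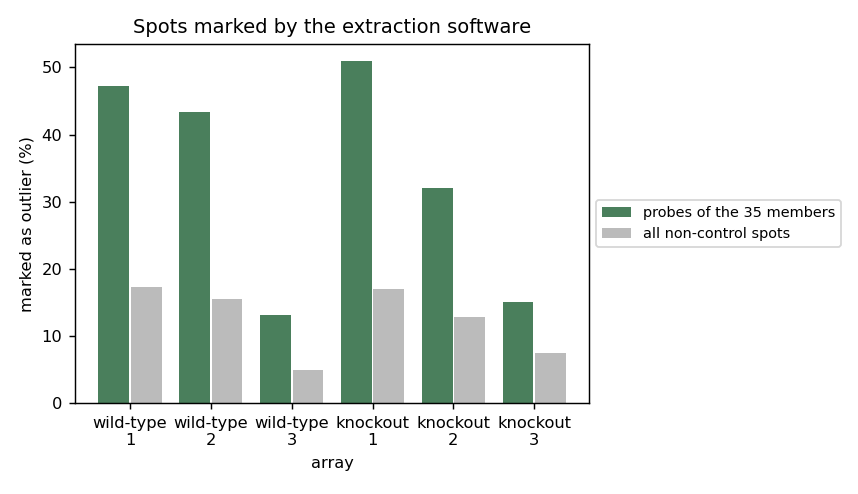
Percentage of spots marked as outliers by the extraction software on each of the 6 arrays, for the 53 probes of the 35 members (green) and for all non-control spots (grey). On every array the members' share is the higher, from 13.2% in wild-type replicate 3 to 50.9% in knockout replicate 1.

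No member passed the test between genotypes. Of the 25 tested members, 0 reached an adjusted p under 0.05 in limma with Benjamini-Hochberg adjustment over all 27909 features, and 1, Cenpe, lower in knockout epithelium, had an unadjusted p under 0.05. The adjusted p-values ran from 0.460 to 0.973. Over all features tested 57, or 0.204%, passed (0.0609% lower in knockout epithelium), and 10.7% had an unadjusted p under 0.05 (7.56% lower). The members' 1 in 25 is too small a count to be told apart from these shares. The direction was nonetheless uneven: 22 of the 25 members had a log2 change below 0, with a median of -0.22, whereas 61.5% of all features were below 0, with a median of -0.061. The members varied together between arrays, as described below, so such counts are not made of separate observations. In 5 members all knockout values lay under all wild-type values, compared with 12.5% of all features, none had the opposite order, which 5.55% of all features had, and 3 of these 5 had lost 1 or 2 arrays to marks. The interval of the log2 change (95%, limma) excluded a 1.5-fold rise in 23 of the 25 members and a 2-fold fall in 21. The cut for a fall is the wider one, so these counts do not compare falls with rises. Neither was set against all features.

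**Figure D2:**
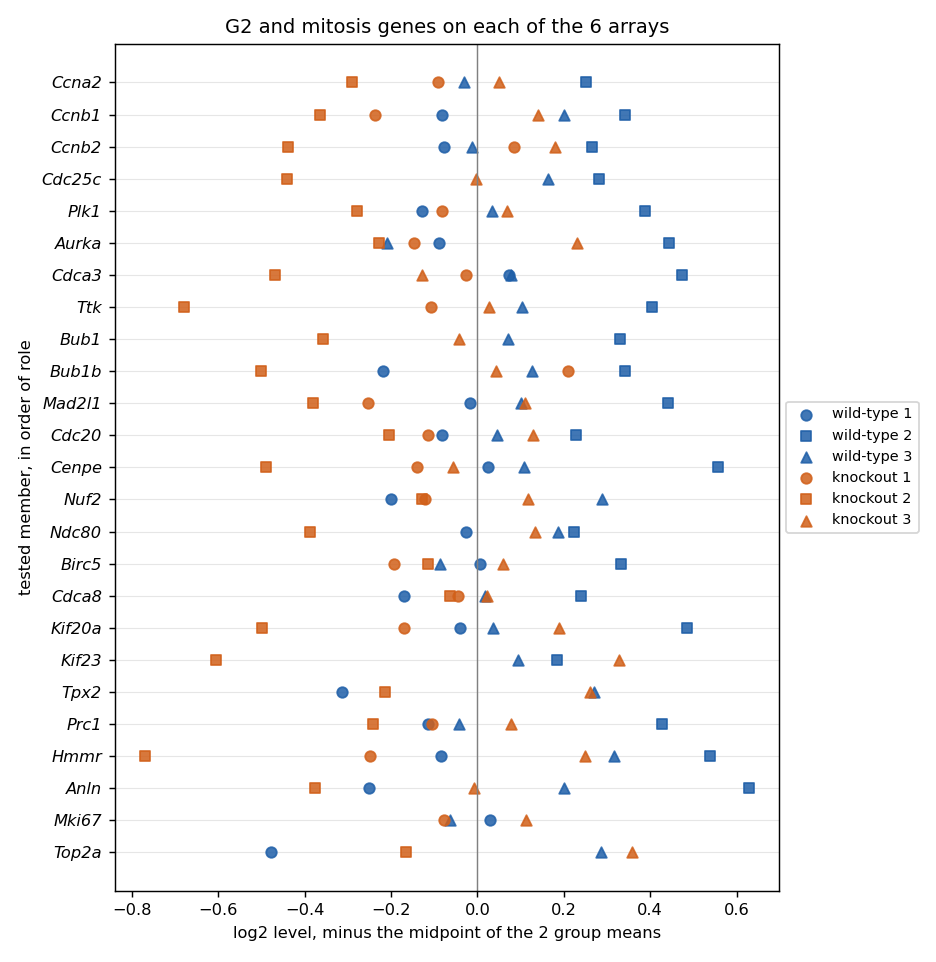
Level of each of the 25 tested members on each array, as the log2 intensity relative to the array's 75th percentile minus the midpoint of the 2 group means (blue, wild-type; orange, knockout; circle, square and triangle for replicates 1, 2 and 3). The blue squares of wild-type replicate 2 lie farthest right in 20 of the 21 members with a value there, and the orange squares of knockout replicate 2 farthest left in 19 of 24.

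The levels of the members differed between arrays of the same genotype. Throughout, a level is the log2 processed intensity relative to the 75th percentile of its array. Wild-type replicate 2 had the highest level of all arrays in 14 of the 14 members with a value on all 6, against 23.0% of the 24064 features measured that way. Knockout replicate 2 had the lowest in 12 of the 14, against 13.8%. With each tested member centred on the midpoint of its group means and the 25 averaged, the wild-type arrays stood at -0.11, 0.37 and 0.091 in order of replicate and the knockout arrays at -0.10, -0.36 and 0.11. The groups overlapped: wild-type replicate 1 and knockout replicate 1 were level with each other, and so were wild-type replicate 3 and knockout replicate 3. The arrays numbered 2 stood farthest apart, at 0.37 and -0.36, and were singled out only after these values had been seen. Over all features the same average stayed between -0.061 and 0.061 on every array. That range is narrow partly by construction, since every array was scaled to its own 75th percentile. Short lists varied unequally: the 9 tested fibroblast and smooth muscle markers ran from -0.47 to 0.43, and the 13 tested crypt base and stem cell markers from -0.091 to 0.098. For the members, the same arrays stood at both ends with the marked spots kept, where all 35 entered. The averages were then -0.13, 0.35, 0.091, -0.058, -0.35 and 0.094 in the same array order.

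The members also varied together from array to array, and with 1 array per mouse, mouse and array cannot be told apart. In the 14 members with a value on all 6 arrays, Pearson's r between a member and the mean of the other 13 ran from 0.79 for Cdca8 to 0.99 for Kif20a, with a median of 0.93, and 12 of the 14 exceeded 0.8. Among 24050 other features the median r with the members' mean was 0.076, and 3.05% exceeded 0.8. After the mean of each group had been taken out, the members' r still had a median of 0.91, with a range of 0.75 to 0.98. All these correlations are descriptions over 6 arrays of 1 slide. With the marked spots kept, the median over 35 members was 0.87, and the lowest values were those of Mki67 at 0.096, Ect2 at 0.37, Ccna2 at 0.44 and Cdk1 at 0.47.

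Without wild-type replicate 2 and knockout replicate 2, an alternative added after these values had been seen, the uneven direction was no longer seen. These arrays were picked as the members' highest wild-type and lowest knockout arrays, so an upward shift was fixed by that choice, and the values below describe its size only. Of the 22 members that could still be fitted, 8 had a log2 change below 0, and the median was 0.021. With the marked spots kept, 13 of 35 were below 0 and the median was 0.034. Leaving out knockout replicate 2 alone gave a median of -0.10 with 18 of 25 members below 0, and leaving out wild-type replicate 2 alone gave -0.087 with 20 of 25. Without knockout replicate 3, all 25 members were below 0 and the median was -0.30. No member was called in any of these fits. The lowest adjusted p over them was 0.308.

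**Figure D3:**
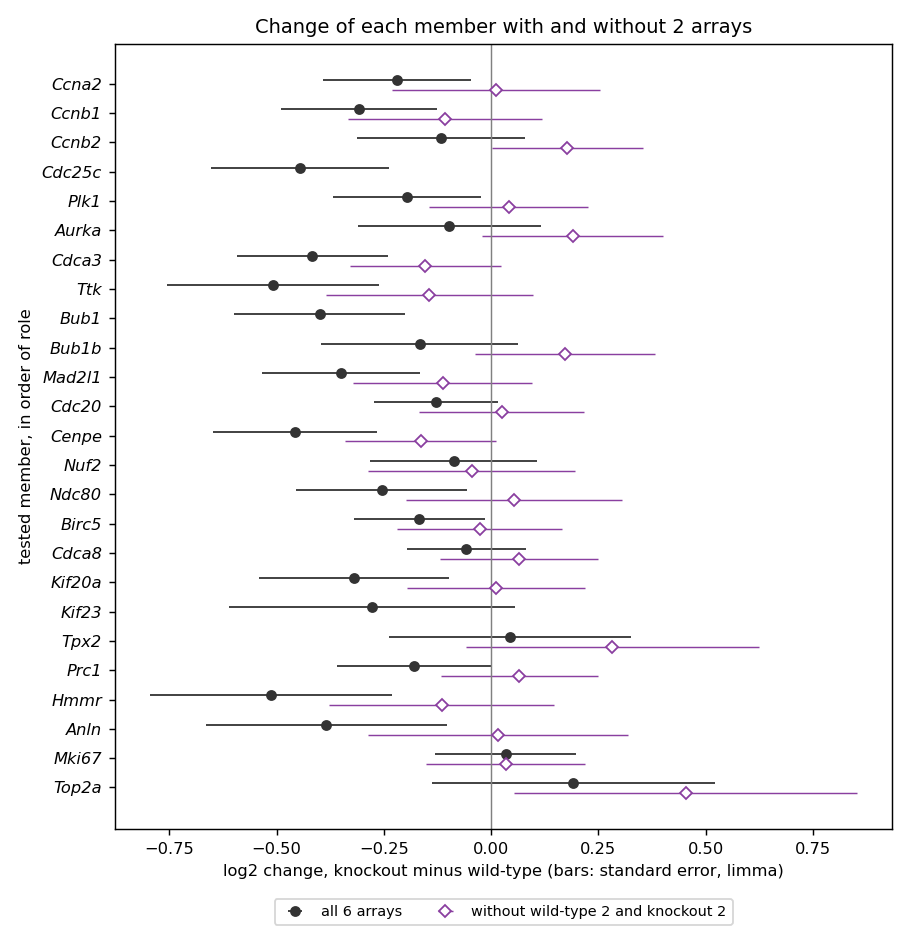
Log2 change (knockout minus wild-type) with its standard error from limma for the 25 tested members, on all 6 arrays (filled circles) and without wild-type replicate 2 and knockout replicate 2 (open diamonds, 22 members). Filled circles lie left of 0 for 22 members, and open diamonds for 8.

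Among the kinases and cyclins of mitotic entry, 7 of 8 members were tested and all 7 had a log2 change below 0, with a median of -0.22 and none called. Ccnb1 encodes cyclin B1, the activating partner of Cdk1 at the entry into mitosis. In order of replicate, its levels were 0.94, 1.37 and 1.22 in wild-type epithelium and 0.79, 0.66 and 1.17 in knockout epithelium. The knockout values overlapped the wild-type ones through knockout replicate 3, and the log2 change was -0.31 ± 0.18 (SE, n = 3 and 3; limma adjusted p = 0.594). Ccnb2, the second B-type cyclin, was measured at 1.097, 1.44 and 1.16 in wild-type and 1.26, 0.74 and 1.36 in knockout epithelium. Here only knockout replicate 2 stood apart, and the log2 change was -0.12 ± 0.20. Ccna2, cyclin A2, which serves both S phase and mitotic entry, had 2 wild-type values of 1.65 and 1.37, in replicates 2 and 3, and knockout values of 1.31, 1.11 and 1.45. Its log2 change was -0.22 ± 0.17 (SE, n = 2 and 3), while a second, brighter probe that was marked on 2 knockout arrays gave 0.063 ± 0.15 with the marks ignored, so the sign for Ccna2 depended on the probe.

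Cdca3, a trigger of mitotic entry that promotes the removal of the inhibitory kinase Wee1, showed no overlap between groups. It was measured at 0.87, 1.27 and 0.87 in wild-type and at 0.77, 0.33 and 0.67 in knockout epithelium. The log2 change of -0.42 ± 0.18 (SE, n = 3 and 3), a ratio of 0.749, had an adjusted p of 0.466 in limma. Cdc25c, the phosphatase that activates Cdk1, was likewise lower in both knockout values left, -1.38 and -0.94 in replicates 2 and 3, than in both wild-type values, -0.65 and -0.77, again in replicates 2 and 3. With the marked values of both replicates 1 restored (-0.69 and -0.72) the groups of Cdc25c overlapped and its log2 change moved from -0.44 ± 0.21 to -0.31 ± 0.18. Plk1, a kinase of centrosome maturation and mitotic entry, and Aurka, the kinase of spindle poles, had smaller values, with log2 changes of -0.20 ± 0.17 and -0.10 ± 0.21. Plk1 followed the shared pattern closely: its levels were 0.36, 0.88 and 0.53 in wild-type and 0.41, 0.21 and 0.56 in knockout epithelium. Cdk1 itself, the kinase at the centre of the switch, was marked on 4 arrays and could be given only with the marks ignored, at 0.081, 0.70 and 1.08 in wild-type and 0.70, 0.48 and 1.08 in knockout epithelium. Wild-type replicate 1 was the lowest of these values, and the log2 change of Cdk1 was 0.14 ± 0.28.

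The spindle checkpoint holds anaphase back until all chromosomes are attached, by keeping Cdc20 from activating the anaphase-promoting complex (APC/C). All 5 of its 6 members that were tested had log2 changes below 0, with a median of -0.35, and none was called. Ttk, the kinase Mps1 that starts the checkpoint signal, kept levels of -0.059 and -0.36 for wild-type replicates 2 and 3, beside -0.57, -1.14 and -0.44 in the knockout mice. These values did not overlap, and the log2 change was -0.51 ± 0.25 (SE; 2 and 3 mice; limma adjusted p = 0.532). The marked value of wild-type replicate 1, -0.71, lay under 2 of the 3 knockout values, and with it the log2 change was -0.34 ± 0.24. Bub1, a checkpoint kinase of the kinetochore, behaved in the same way: its log2 change of -0.40 ± 0.20 (SE, n = 2 and 2) became -0.19 ± 0.22 once the marked values of both replicates 1 were restored, -0.44 in wild-type and -0.20 in knockout epithelium.

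Mad2l1, the checkpoint protein that binds Cdc20, was unmarked on all arrays, at 1.48, 1.94 and 1.60 in wild-type and 1.25, 1.12 and 1.61 in knockout epithelium. Knockout replicate 3 lay inside the wild-type range, and the log2 change was -0.35 ± 0.18 (adjusted p = 0.553, limma). Bub1b, the inhibitor of the APC/C known as BubR1, and Cdc20, its activator, had log2 changes of -0.17 ± 0.23 and -0.13 ± 0.14. A second unmarked probe of Cdc20 gave -0.15 ± 0.20, within its error of the first. Ube2c, the ubiquitin-conjugating enzyme of the APC/C, was not tested. With its marked values kept it was at 1.46, 1.80 and 1.67 in wild-type and 1.70, 1.28 and 1.61 in knockout epithelium, with only knockout replicate 2 below the wild-type range.

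Of the 5 members at centromeres and kinetochores 3 were tested, all 3 below 0 with a median of -0.25 and none called. Cenpe, a kinesin that carries chromosomes to the spindle equator, had the smallest unadjusted p of the tested members. Its levels were 0.49, 1.03 and 0.58 in wild-type and 0.33, -0.019 and 0.41 in knockout epithelium, without overlap. The log2 change was -0.46 ± 0.19 (SE, n = 3 and 3), a ratio of 0.728 with an interval of -0.91 to -0.0059 on the log2 scale, and did not pass (unadjusted p = 0.0478, adjusted p = 0.460, limma). Without wild-type replicate 2 and knockout replicate 2 the log2 change of Cenpe was -0.16. Ndc80 and Nuf2, which together form the arm of the outer kinetochore that grips microtubules, were at log2 changes of -0.25 ± 0.20 (SE; 3 and 2 mice) and -0.087 ± 0.19 (SE; 2 and 3 mice). Nuf2 had lost its marked value in wild-type replicate 2, 0.67, which was the highest of the 6, and with it the log2 change was -0.30 ± 0.23.

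Cenpf and Cenpa could be described only with marked spots kept. Cenpf, a large kinetochore protein of G2 and mitosis, stood at 0.22, 0.53 and 0.26 in wild-type and 0.21, -0.49 and -0.20 in knockout epithelium. The groups were separate by a narrow margin, and the log2 change was -0.50 ± 0.20 (unadjusted p = 0.0420, adjusted p = 0.460, limma). A second probe of Cenpf had a difference of -0.45 on the same terms. Cenpa, the histone H3 variant that marks centromeres, was at 0.36, 0.76 and 0.52 in wild-type and 0.27, -0.26 and 0.31 in knockout epithelium, with a log2 change of -0.44 ± 0.19 (adjusted p = 0.499). Both wild-type replicate 1 and wild-type replicate 2 were marked for each of these genes, so the wild-type side of both values rests largely on spots that the software distrusted.

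The chromosomal passenger complex corrects faulty attachments and later directs cytokinesis. Its member Birc5, survivin, was at 2.33, 2.66 and 2.24 in wild-type and 2.13, 2.21 and 2.38 in knockout epithelium. Wild-type replicate 2 was again the highest, the groups overlapped, and the log2 change was -0.17 ± 0.15 (adjusted p = 0.744, limma), with a second probe at -0.44 ± 0.26. Cdca8, the subunit borealin, had the narrowest error of the members, with a log2 change of -0.057 ± 0.14 and an interval of -0.39 to 0.27. Aurkb, the kinase of the complex, was not tested, since each of its 2 probes was marked on 3 arrays. With marks ignored, Aurkb ranged from -0.84 to 0.69 among wild-type mice alone, and its log2 change was -0.11 ± 0.38.

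Of the 9 genes for spindle motors and microtubule-binding proteins, 5 were tested and 4 had a log2 change below 0. Hmmr, a spindle protein also known as a hyaluronan receptor, had the lowest log2 change of all tested members, -0.51 ± 0.28 (SE, n = 3 and 3; limma adjusted p = 0.567). Its levels were -0.996, -0.37 and -0.60 in wild-type and -1.16, -1.68 and -0.66 in knockout epithelium, so that knockout replicate 3 lay above wild-type replicate 1. A second unmarked probe of Hmmr did separate the groups, at -0.99, -0.29 and -0.61 against -1.26, -1.46 and -1.02, with a log2 change of -0.62 ± 0.21 (limma over probes, unadjusted p = 0.0217). This probe was the dimmer of these and did not stand for the gene under the rule used, while another, brighter probe, marked on 4 arrays, gave -0.36 ± 0.19 with marks ignored. Kif20a, a kinesin of cytokinesis, had the highest correlation with the mean of the others among the 14 members unmarked on all arrays, though not among all 35 with marked spots kept. It had levels of 0.55, 1.08 and 0.63 in wild-type and 0.42, 0.10 and 0.78 in knockout epithelium. Its log2 change was -0.32 ± 0.22 on 6 arrays and 0.012 without the arrays numbered 2.

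Prc1, which bundles microtubules at the spindle midzone, and Kif23, a motor of the same structure, were at -0.18 ± 0.18 and -0.28 ± 0.33 (SE, the latter from 2 and 2 mice). Another probe of Kif23, unmarked throughout, gave -0.31 ± 0.21. Tpx2, the activator of Aurora A at the spindle, was the exception of this group at 0.045 ± 0.28 (SE, n = 2 and 2). Its marked wild-type replicate 2 value, 0.36, was the highest of the 6, and with all values kept the log2 change was -0.12 ± 0.30, so the sign for Tpx2 depended on the marks. Nusap1, which binds spindle microtubules near chromatin, was marked on 4 arrays. With those values kept it was at 0.88, 1.67 and 0.91 in wild-type and 0.61, 0.066 and 0.83 in knockout epithelium. That gave the lowest log2 change among the 35 members, -0.65 ± 0.28 (unadjusted p = 0.0542, adjusted p = 0.489, limma), and the arrays numbered 2 again took both ends. Kif11, the motor that pushes spindle poles apart, Kif4, a chromosome-bound kinesin, and Dlgap5, a spindle assembly factor, had log2 changes of -0.11 ± 0.23, -0.21 ± 0.21 and -0.17 ± 0.18 with marks ignored.

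Cytokinesis and chromosome structure were covered by 4 members. Anln, anillin of the contractile ring, was tested by its dimmer probe, at -2.95, -2.07 and -2.50 in wild-type and -3.07 and -2.71 in knockout replicates 2 and 3. Wild-type replicate 1 lay inside the knockout range, with a log2 change of -0.38 ± 0.28 (SE; 3 and 2 mice), and the brighter probe, marked on 4 arrays, gave -0.085 ± 0.21. Ect2, the exchange factor that activates RhoA for furrowing, was at 0.50, 1.03 and 1.40 in wild-type and 0.99, 0.97 and 1.23 in knockout epithelium with marks ignored, and had a log2 change of 0.090 ± 0.23.

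Mki67, whose product Ki-67 coats mitotic chromosomes and serves as the usual label of cycling cells, varied little. With 2 unmarked values per group it was at 2.21 and 2.12 in wild-type replicates 1 and 3 and 2.10 and 2.29 in knockout replicates 1 and 3, a log2 change of 0.034 ± 0.16. With the values of both replicates 2 restored, 2.07 and 2.06, it had a log2 change of 0.016 ± 0.12. Both restored values lay below those of all other arrays, so those arrays did not stand at opposite ends. Top2a, the topoisomerase that untangles sister chromatids, had a log2 change of 0.19 ± 0.33 by its tested probe (SE, n = 2 and 2) and of -0.18 ± 0.16 by a brighter probe marked on 4 arrays. The sign for Top2a thus differed between probes, and that of the tested probe also turned without wild-type replicate 1 (-0.19) or knockout replicate 3 (-0.070). The tested probe had lost its marked wild-type replicate 2 value, 1.07, the highest on any array. With marks ignored it gave a difference of 0.047. Mki67, Top2a and Tpx2, the tested members above 0, all lacked a wild-type replicate 2 value, as did Nuf2, which was below 0.

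Probes of the same gene mostly pointed the same way. In the 5 members with at least 2 tested probes, Birc5, Cdc20, Cdca8, Hmmr and Kif23, all 5 had the same sign. With marked spots kept, 13 of the 15 members with several probes had a single sign, the exceptions being Ccna2 and Top2a, and 47 of all 53 probes were below 0. With those spots kept and all 35 members tested, 31 had a log2 change below 0 with a median of -0.18, compared with 60.1% of all 32275 features. Again 0 passed, against 0.17% of all features, and 2 members, Cenpe and Cenpf, had an unadjusted p under 0.05, against 10.4% of all features and 7.13% in the lower direction. In 5 members, Cdca3, Cenpa, Cenpe, Cenpf and Nusap1, the knockout values all lay under the wild-type ones, as in 10.8% of all features. Of the 10 members that could not be tested otherwise, 8 were below 0, and Cdk1 and Ect2 were not.

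Other genes of mitosis that are no members had the same arrays at both ends. Of 88 listed genes, 67 were tested, 58 of them below 0 with a median log2 change of -0.14, and 0 passed. At an unadjusted p under 0.05, 3 were lower and 0 higher. Cenpk, a subunit of the inner kinetochore, had a log2 change of -0.54 ± 0.16 (adjusted p = 0.329, limma), Oip5, which helps to load centromeric histone, one of -0.68 ± 0.24 (SE, n = 2 and 3), and Sgo2a, a guardian of centromeric cohesion, one of -0.39 ± 0.15. The averages of this list were -0.17, 0.36 and 0.063 on the wild-type arrays and -0.059, -0.23 and 0.053 on the knockout arrays, so wild-type replicate 2 and knockout replicate 2 were again the extremes. Without them the median was 0.047, and the direction of that shift was fixed by leaving out the extremes of the list.

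**Figure D4:**
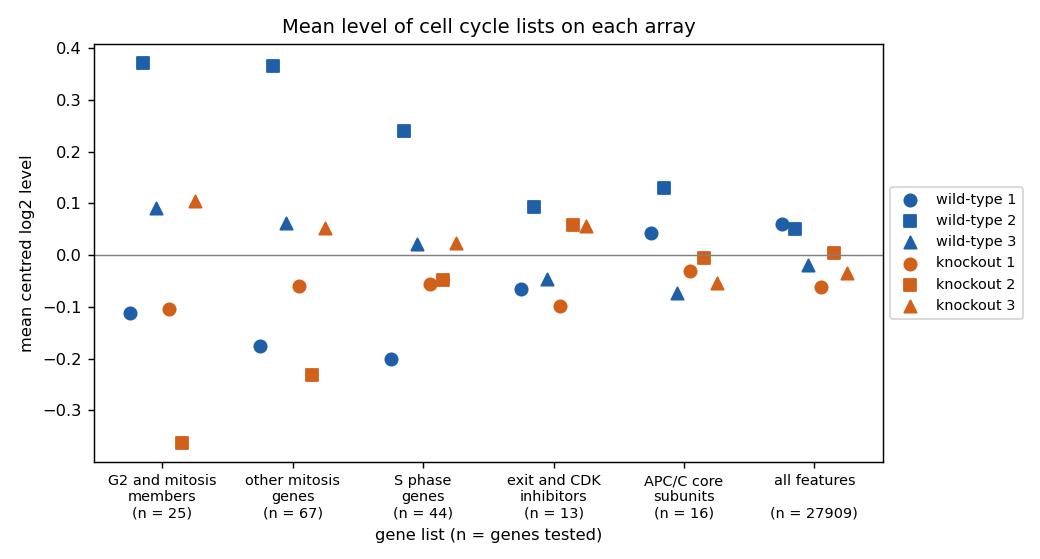
Mean centred log2 level of each list on each array (blue, wild-type; orange, knockout; circle, square and triangle for replicates 1, 2 and 3), where each gene is centred on the midpoint of its group means. Wild-type replicate 2 is highest for the members (0.37), other mitosis genes (0.36) and S phase genes (0.24), while knockout replicate 2 is lowest for the members (-0.36) and other mitosis genes (-0.23) but not for S phase genes (-0.047).

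Genes of DNA replication and S phase shared part of this pattern. Of 49 listed genes 44 were tested, 24 of them below 0, with a median log2 change of -0.017, and 0 passed, although 3 were lower and 1 higher at an unadjusted p under 0.05. Wild-type replicate 2 stood highest at 0.24 and wild-type replicate 1 lowest at -0.20, whereas knockout replicate 2 was near the middle at -0.047. The low end of knockout replicate 2 was thus measured in mitosis genes and not in S phase genes, and that difference was not tested. Orc1, a subunit of the origin recognition complex, had the smallest p of the list, with a log2 change of -0.86 ± 0.15 (adjusted p = 0.125, limma), and it did not follow the mitosis genes: its levels were -1.13, -1.21 and -1.29 in wild-type and -1.96, -1.92 and -2.33 in knockout epithelium. Orc6 had a log2 change of -0.35 ± 0.12 and Mcm3, a subunit of the replicative helicase, stood at 0.61 ± 0.22 (SE, n = 2 and 3).

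Genes that restrain the cycle and subunits of the APC/C had medians nearer 0. Of 21 listed genes of cell cycle exit, 13 were tested with a median of -0.014, 7 below 0 and none called. Trp53, the tumour suppressor p53, had a log2 change of 0.28 ± 0.12 and Lin37, a MuvB subunit, one of 0.31 ± 0.15 (SE, n = 3 and 2), while Cdkn2c, an inhibitor of Cdk4 and Cdk6, had one of -0.28 ± 0.16. No gene of this list had an unadjusted p under 0.05. Of 17 core subunits of the APC/C, 16 were tested, and 13 of them (81.2%) were below 0 with a median of -0.046. Wild-type replicate 2 was again the highest array, at 0.13, while knockout replicate 2 was at -0.0046. None was called, and 1 was lower at an unadjusted p under 0.05, Anapc10, at -0.38 ± 0.14 (SE, n = 3 and 2).

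Markers of other cell states were set beside the members' averages. Crypt base and stem cell markers, all 14 well above background, averaged -0.067, -0.029 and 0.048 in wild-type and 0.035, 0.098 and -0.091 in knockout replicates over the 13 that were tested, without the members' extremes. The 8 tested surface colonocyte markers averaged -0.040, 0.041 and -0.082 in wild-type and -0.087, -0.11 and 0.21 in knockout replicates, highest in knockout replicate 3. Leukocyte markers, 15 of 16 well above background on at least 3 arrays, averaged -0.097, -0.16 and -0.14 in wild-type and -0.068, 0.18 and 0.27 in knockout replicates. All knockout averages lay above all wild-type ones. Of the 15 markers, 11 had a log2 change above 0 and 4 below, with a median of 0.18, against 61.5% of all features below 0. In 1 marker all knockout values lay above all wild-type values, against 5.55% of all features, and none was called. Ms4a1, at -6.46 in wild-type replicate 1, lay just under the lowest level well above background there, -6.45. The summed signal of the leukocyte markers, in units of the 75th percentile of the array, ranged from 19.9 to 23.4 in wild-type and 22.0 to 23.7 in knockout epithelium. Erythroid markers, all 5 of those on the array well above background, averaged 0.25, 0.33 and -0.018 in wild-type and -0.40, -0.44 and 0.28 in knockout replicates. The arrays numbered 2 were the extremes here too, but both replicates 1 lay close to them. All 5 markers had a log2 change below 0, against 61.5% of all features, with none called. Their summed signal was 1.31 to 1.44 in wild-type and 1.09 to 1.67 in knockout epithelium. Among endothelial markers Cdh5, Kdr and Tek were not above background on any array, and among fibroblast and smooth muscle markers Pdgfra was not. The 9 tested fibroblast and smooth muscle markers averaged 0.34, -0.12 and -0.12 in wild-type and -0.47, -0.048 and 0.43 in knockout replicates. The 3 tested endothelial markers averaged 0.13, 0.17 and -0.081 against 0.23, -0.11 and -0.34. The 4 tested epithelial markers averaged 0.071, -0.023 and -0.0090 against -0.066, 0.040 and -0.023. The part of leukocyte, erythroid, fibroblast, smooth muscle or endothelial RNA in the members' levels was not tested.

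The slide layout adds a limit. All wild-type arrays lay in 1 row of the single slide and all knockout arrays in the other, so slide row and genotype cannot be told apart. Wild-type replicate 2 and knockout replicate 2 shared slide column 2 and stood at opposite ends of the members' range.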

How the data were processed

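Each of 6 mice gave 1 Agilent one-colour array. The scanner files deposited by the authors hold the intensity of each spot, background-subtracted and detrended within the array by Agilent Feature Extraction 11.5.1.1, per the file headers; version 10.7 stands in the submitters' processing notes. The authors' series table holds nearly the same intensity per probe. Accessions were named by RefSeq (GRCm38.p6), which gave 33767 of 56605 probes a symbol. The design names mm9, and promoter coordinates come from RefSeq alone.

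Log2 processed intensity minus the array's 75th percentile was used, without spots marked as non-uniform or population outliers, and spots of 1 probe were averaged. Features well above background on at least 3 arrays, with at least 2 unmarked arrays per group, were tested (27909). The brightest such probe stood for a gene. Knockout and wild-type were compared with limma 3.58.1 (lmFit, eBayes, two-sided; R 4.3.3; statmod 1.5.0), Benjamini-Hochberg adjusted over all features. Alternatives changed the background correction, scaling, filters, probe rule, variance model, blocks and arrays kept. The code was tested on simulated data. The files lack a mean spot signal, so normexp (offset 50) used the median. Nothing says how the mice relate, and p-values measure the spread between these samples. The 3 arrays a group limit the precision. The members and all gene lists were chosen with earlier results of these data known. Named genes are all members and, from each other cell cycle list, the 3 with the smallest unadjusted p.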

Additional observations from a re-analysis of the deposited data

How the results depend on the processing

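No member was called under any setting tried, including the 3 added after seeing the data, which are those without both replicates 2, with or without marked spots, and with features unmarked on all 6 arrays. The members' median log2 change stayed below 0 under the other settings that used all arrays, from -0.32 with array weights to -0.17 with median centring, and ran from -0.32 to -0.087 with 1 array left out, with 18 to 25 members below 0. Leaving out both replicates 2, a choice that fixed an upward shift, gave a median of 0.021 (8 below 0), and 0.034 (13 below 0) with marked spots also kept. The slide column block compares only replicates 1 and 2, since both replicates 3 stand alone in their columns, and gave -0.35. With 14 members each, all 14 were below 0 under that block and among members unmarked on all 6 arrays. So were all 15 members left when a probe had to be unmarked and well above background on all 6 arrays. Fewer genes were tested in each of these settings.

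Over all features, the 57 calls became 99 with normexp and 35 without the filter on dim probes. They became 33 when a probe had to be unmarked and well above background on all 6 arrays. There were 104 with trend and robust variance, 100 with array weights and 238 with the slide column block. They ranged from 20 to 115 with 1 array left out, 20 without wild-type replicate 1, 28 without wild-type replicate 2, 27 without knockout replicate 2 and 115 without knockout replicate 3, and were 6 without both replicates 2 (7 with marks kept). The cause of these differences was not tested.

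Signs of uncalled members turned as follows. With normexp Mki67 was at -0.010, and with marks kept Ccna2 was at 0.063, Tpx2 at -0.12 and Top2a at -0.18. With 1 array left out the ranges that crossed 0 were -0.24 to 0.10 for Aurka, -0.32 to 0.043 for Bub1b, -0.24 to 0.074 for Ccnb2, -0.16 to 0.048 for Cdca8, -0.74 to 0.19 for Kif23, -0.061 to 0.13 for Mki67, -0.52 to 0.0062 for Ndc80, -0.33 to 0.16 for Nuf2, -0.19 to 0.57 for Top2a and -0.25 to 0.34 for Tpx2, and the exit list's median ran from -0.088 to 0.091. Without both replicates 2, Ccna2 was at 0.011, Ccnb2 at 0.18, Plk1 at 0.041, Aurka at 0.19, Bub1b at 0.17, Cdc20 at 0.025, Ndc80 at 0.054, Cdca8 at 0.065, Kif20a at 0.012, Prc1 at 0.066 and Anln at 0.017. With marks also kept, Ccna2 was at 0.16, Ttk at 0.030, Bub1 at 0.061, Kif23 at 0.23 and Anln at 0.11, while Ccnb2 (0.18), Plk1 (0.041), Aurka (0.19), Bub1b (0.17), Cdc20 (0.025), Cdca8 (0.065), Kif20a (0.012) and Prc1 (0.066) were as before.

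No paired analysis was possible because the labels give the groups no shared replicate numbers. The blocks that were fitted used slide column, as above, and the number in each sample title, whose meaning the labels do not give. The block by title number set both replicates 3 apart from the other arrays and left the members' median at -0.22. Some fits with arrays left out hold 1 value in a group, which is then assumed to vary like the rest. The signal of the members lay well above background, so their precision is limited by the number of arrays and by marked spots.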
